A study of Saccharomyces cerevisiae with 6 samples.

Results

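The large (60S) ribosomal subunit of budding yeast is put together in the nucleolus by assembly factors, proteins that bind the pre-rRNA and leave before the finished subunit translates. The mRNAs of 51 such factors, chosen by gene identifier from a fixed list, are described here out of 6461 genes in the count table, and all 51 were present and passed the filter on low counts. They were measured by 3′-Tag-seq (QuantSeq), which samples each mRNA from its poly(A) end, in total RNA. The 6 libraries were a pair of biological replicates each of cells kept at 25°C, cells kept at 30°C, and cells moved from 25°C to 37°C for 2 h. All 3 groups are the same strain in the BY4741/2 background, with Cbp80, the large cap-binding subunit, fused to a protease site and protein A (CBP80-PPX-PrA) and the export adaptor Yra1 fused to a SNAP tag (SNAPf-YRA1), grown in YPD to an OD near 1. The shift to 37°C was made by adding as much warm fresh medium as there was culture, so heat and fresh medium cannot be told apart at 37°C. Every value is a share of a library, so less of an mRNA per cell and more of all other RNA cannot be told apart either.

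Assembly starts on the nascent pre-rRNA, where RNA-binding proteins, DEAD-box helicases and scaffold proteins fold the domains of the future 25S rRNA. Later steps add the 5S particle, trim the spacers, and pass the particle through GTPase and AAA-ATPase checkpoints to export adaptors and cytoplasmic release factors. In yeast, genes of this kind belong to the ribosome biogenesis regulon, whose transcription follows growth conditions and is reduced in many stresses. Many of their promoters carry the PAC element, bound by the repressors Dot6 and Tod6, and the RRPE element, bound by Stb3, and the STRE element, bound by Msn2 and Msn4, is known from stress-induced genes.

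The sequences that these genes share were read from the R64 genome, the build used for the counts, as 250 bases before to 50 bases after each annotated start codon. Core motifs were searched for on both strands: GATGAG for PAC, AAAAATTT for RRPE, and AGGGG for STRE. The RRPE core can overlap its own reverse complement AAATTTTT, the PAC and RRPE cores cannot overlap each other, and STRE can overlap the end of a PAC core. The PAC core was found in 47 of 51 members (92.2%), against 20.4% of all 6001 coding genes. The RRPE core was found in 45 members (88.2%), against 14.1% of coding genes. Both cores were found in 41 members (80.4%), against 5.63% of coding genes, and no member lacked both. The STRE core was found in 4 members (DBP3, MRT4, NOG2, and NOP2, or 7.84%), against 21.6% of coding genes.

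The stretch that holds the closest PAC and RRPE pair is shown for 8 members. They have the smallest p at 37°C against 25°C among those that hold both cores. A link between these stretches and the levels was not tested. Sequences run 5′ to 3′ in the direction of the gene, and capitals mark every PAC and RRPE core in the stretch.
NOP7 (chrVII:695272-695298, plus strand): aaagaAAATTTTTtgcGATGAGATGAG
NSA2 (chrV:414300-414333, minus strand): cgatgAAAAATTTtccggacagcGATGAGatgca
BRX1 (chrXV:186859-186888, minus strand): gactgAAAAATTTtagatgCTCATCgcgat
HAS1 (chrXIII:851687-851761, minus strand): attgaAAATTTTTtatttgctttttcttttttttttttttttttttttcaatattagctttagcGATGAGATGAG
MAK16 (chrI:101259-101285, minus strand): ttttgAAAAATTTtccGATGAGctttt
EBP2 (chrXI:125629-125660, plus strand): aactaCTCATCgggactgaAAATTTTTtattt
DBP9 (chrXII:696975-697033, minus strand): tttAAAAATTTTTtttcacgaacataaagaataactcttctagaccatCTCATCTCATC
NOP4 (chrXVI:469795-469829, plus strand): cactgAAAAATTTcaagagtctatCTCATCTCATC

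In 7 of these 8 stretches the RRPE core lies upstream of the PAC core, and EBP2 has the other order. Over all members, 40 had a pair upstream of the start codon, with PAC farther from the start than RRPE in 4 of them and a median gap of 10 bases between the cores. The upstream RRPE cores lay 98 to 248 bases from the start codon (median 147), and the upstream PAC cores 1 to 243 bases (median 119). Distances are to the first base of a match, and the PAC match at 1 base, in DBP7, runs over the start codon itself. A match is a description of letters in this window and not a shown binding site. The 51 genes lie on 14 chromosomes, no pair is adjacent, and only NOP16 and NUG1 on chromosome V and SPB4 and LOC1 on chromosome VI lie within 5 genes of each other. Gene lengths run from 546 to 14733 bp (median 1557 bp), and 50 members have a single coding exon.

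**Figure D1:**
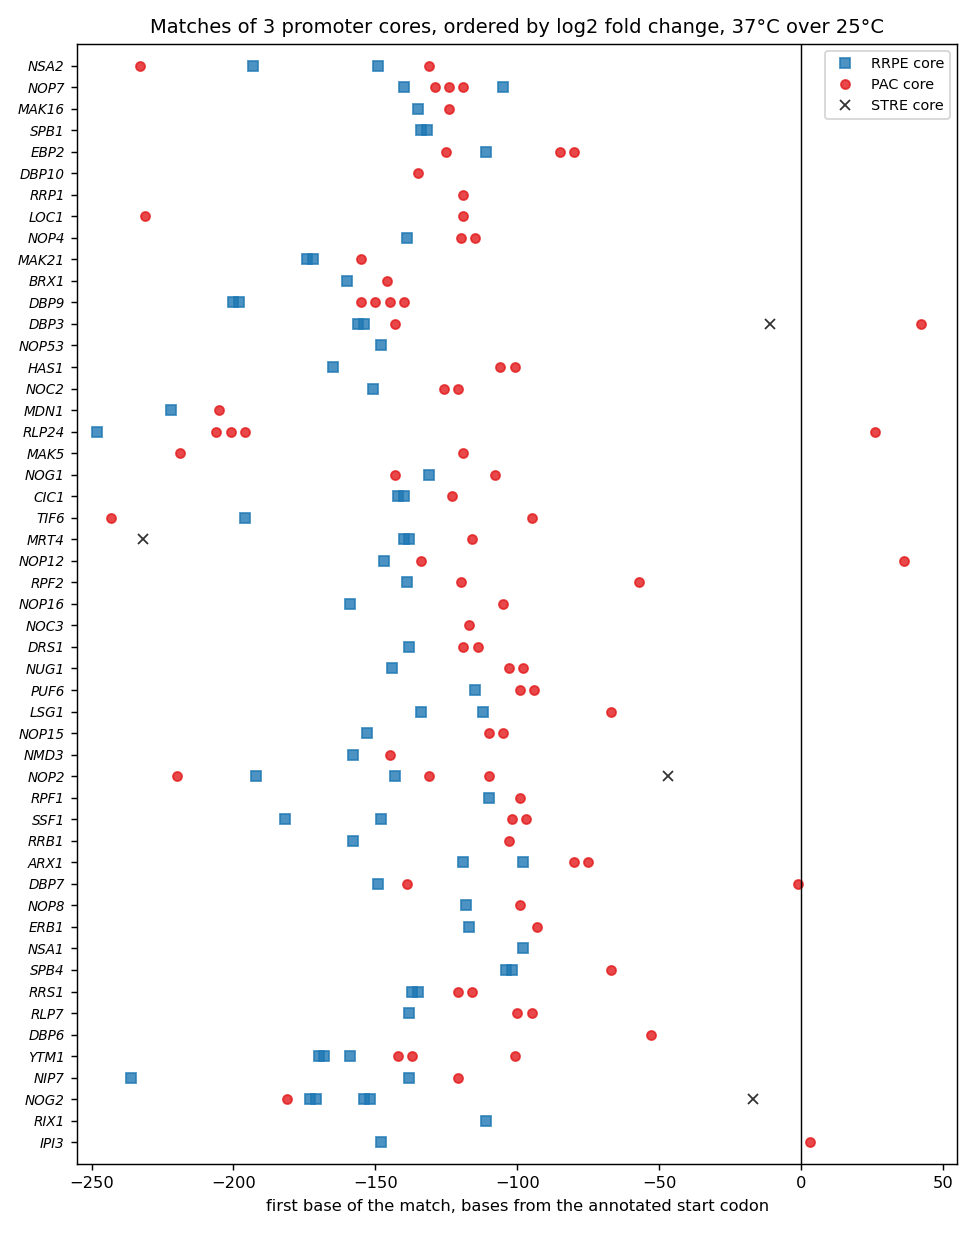
Positions of PAC (circles), RRPE (squares), and STRE (crosses) core matches in the promoter windows of the 51 members, 1 row per gene, ordered from the lowest to the highest log2 fold change at 37°C over 25°C. The x axis is the first base of a match in bases from the annotated start codon (vertical line). RRPE matches centre on 147 and PAC matches on 119 bases upstream, and most members at the bottom, with log2 fold changes near 0, hold both cores too.

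Libraries held 184456 to 1006632 counts in genes, and the first 25°C library was the smallest and stood apart on the first principal component (71.9% of variance). The first 25°C library also differed in this group of genes: the members' median deviation from their own mean was 0.67 on the log2 scale there, 0.11 in the second 25°C library, and −0.43 to 0.09 in the other 4. Proteins of the large subunit (82 RPL genes) deviated the other way in that library, with a median of −1.26, and their medians in the other libraries were 0.54 at 25°C, 1.09 and 0.02 in the 30°C pair, and −0.27 and −0.12 in the 37°C pair. The members' medians and counts at 37°C against 25°C, and the log2 fold changes of most members described, are therefore also given without it, from a fit of the other 5 libraries. URA3 and MET17, deleted or disrupted in this background, had 0 counts in every library, and HIS3, of which the background's deletion leaves a part, had 3 to 124.

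Members took up 2.29% and 2.05% of the gene counts in the 37°C libraries, against 4.01% and 2.62% in the 25°C libraries, and the groups did not overlap. The 30°C libraries held 1.92% and 2.78%, overlapping both. At 37°C against 25°C, 49 of 51 members had a negative log2 fold change (44.6% of the 5181 genes tested did), with a median of −0.78, against 0.09 for all genes, and a range of −1.63 to 0.10. Both 37°C libraries lay below both 25°C libraries in 41 members (23.2% of all genes), and no member had the opposite arrangement (29.4% of all genes). At an unadjusted p below 0.05 in edgeR's quasi-likelihood test, 17 members were lower (6.02% of all genes) and 0 were higher (7.53% of all genes).

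A call needed a log2 fold change beyond 1 in either direction together with an adjusted p below 0.05. No member met this in edgeR, which called 0 of 5181 genes (0%). The smallest adjusted p of a member was 0.251, for NOP7. DESeq2, the tool of the study, called 1 member lower, NOP7 (adjusted p = 0.0317), where it gave an adjusted p to 37 members and called 38 of 1156 genes lower (3.29%). That call was lost without DESeq2's filter on low counts (smallest adjusted p of a member 0.0746), where 11 of 6153 genes were called lower. It was also lost without the first 25°C library. By limma-voom 0 members were called, and 0 of all 5181 genes. Without the first 25°C library, the median was −0.54 (all genes 0.01), 50 of 51 members were negative, and 6 were lower at an unadjusted p below 0.05 (4% of all genes). Of the members, 11 had a log2 fold change below −1 with all libraries (305 of all 5181 genes did). Without the first 25°C library 2 members did, NOP7 and TIF6 (146 of all 5347 genes did). TIF6 was not among the 11: it had −0.83 with all libraries and −1.04 without that one. Its counts were few, 18 in the second 25°C library and 11 and 10 at 37°C. Without the second 25°C library the median was −1.04 and edgeR called 10 members lower (3.02% of 5326 genes). Scaling by library totals alone moved the median of all genes to 0.33 and that of the members to −0.52, so both moved by a like amount. With that scaling the count of 17 members became 2 (110 of 5181 genes). The count was also lower without the second 30°C library and without either 37°C library, in fits that leave 1 library at a temperature.

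**Figure D2:**
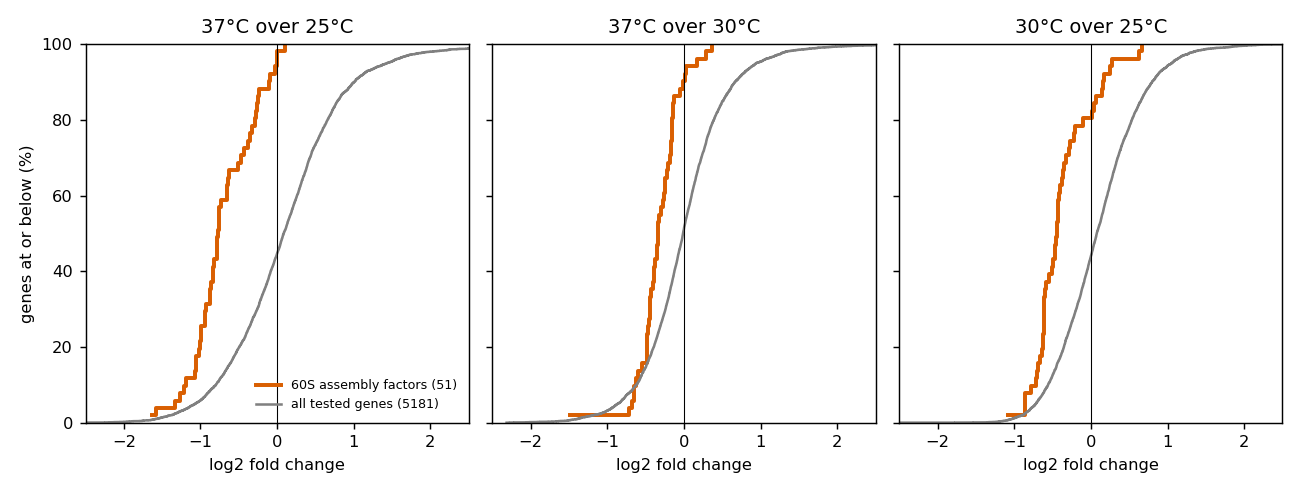
Cumulative share of genes (y axis, percent) at or below each log2 fold change (x axis, cropped to the middle of the range) for the 51 members (orange) and all 5181 tested genes (grey) in the 3 comparisons. At its middle the members' curve lies left of all genes. The medians are −0.78 against 0.09 for 37°C over 25°C, −0.33 against −0.01 for 37°C over 30°C, and −0.45 against 0.08 for 30°C over 25°C. In the lowest tail all genes reach farther left than the members.

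NOP7 (YGR103W, chrVII:695417-697234) encodes the yeast Pescadillo protein, which forms a complex with Erb1 and Ytm1 that is needed to process the 27S pre-rRNA. It had 2399 and 1281 CPM at 25°C, 898 and 1121 CPM at 30°C, and 648 and 577 CPM at 37°C, where CPM is the count per 1e+06 counts in genes after TMM scaling. The 3 temperatures did not overlap, and the first 25°C library was the highest of all. Its log2 fold change at 37°C against 25°C was −1.58 (SE 0.44, 95% interval −2.61 to −0.56, edgeR adjusted p = 0.251), and −1.10 without the first 25°C library. Mean levels were 612 ± 50.4 CPM at 37°C and 1839.7 ± 790.4 CPM at 25°C (SD, n = 2 each). Of its partners, ERB1 (YMR049C) had a log2 fold change of −0.29 (SE 0.32, −0.16 without the first 25°C library) and YTM1 (YOR272W), which had 230.2 and 189 CPM at 37°C, against 206 and 240.3 CPM at 25°C, had −0.10 (SE 0.29), with overlapping libraries. The differences between these partners were not tested.

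**Figure D3:**
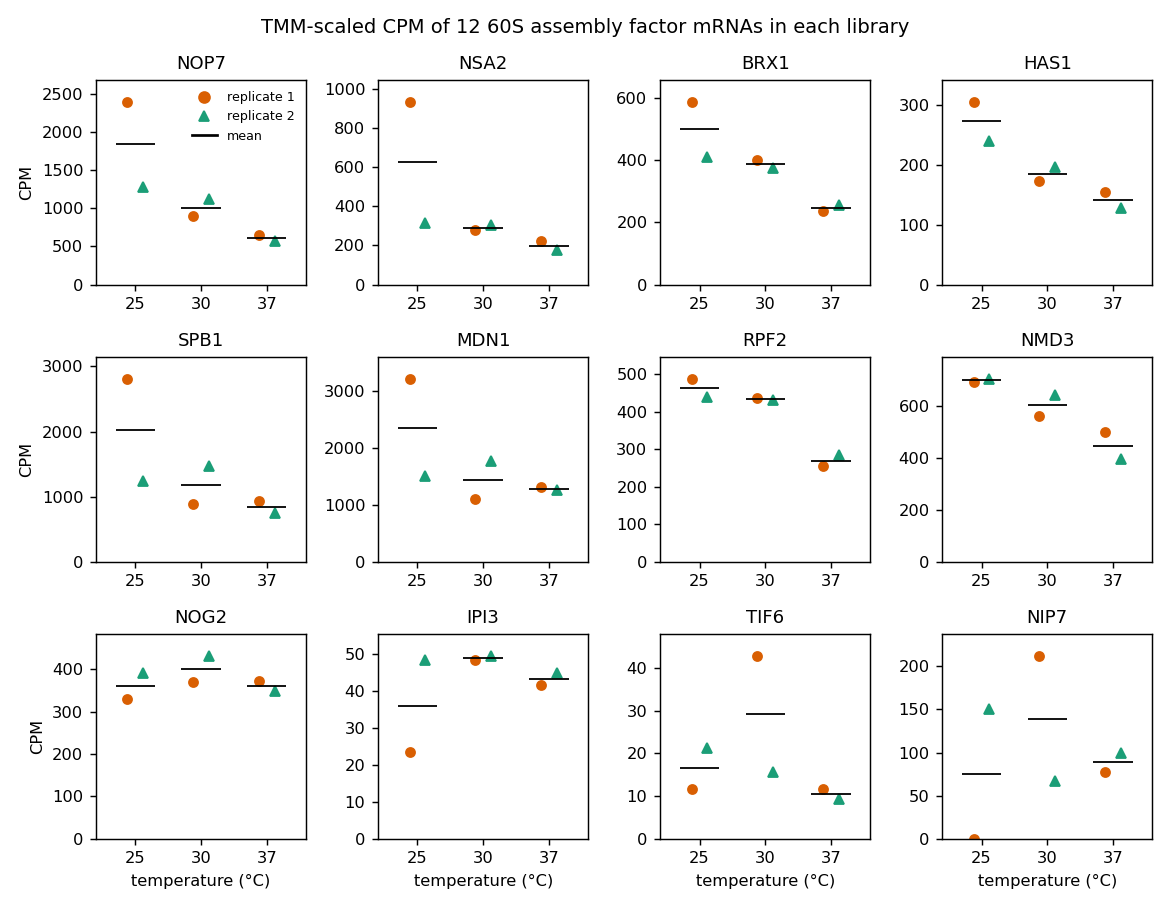
TMM-scaled CPM (y axis, from 0) of 12 members in each library by temperature (x axis), with replicate 1 as circles, replicate 2 as triangles, and the mean as a bar. NOP7, BRX1, HAS1, NSA2, SPB1, and MDN1 all lie lower at 37°C than at 25°C in both replicates. Each of them is also highest in the first 25°C library, and NIP7 has 0 counts there.

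Among the 8 nucleolar factors with no domain group of their own, all had a negative log2 fold change, 7 did not overlap (23.2% of all genes lay in that order), and 5 had an unadjusted p below 0.05 (6.02% of all genes), with a median of −1.01. Their median without the first 25°C library was −0.61 and 2 of them, RRP1 and NSA2, had an unadjusted p below 0.05. NSA2 (YER126C), which is needed to process the 27S pre-rRNA, had 935 and 317 CPM at 25°C, 279 and 304 CPM at 30°C, and 223 and 174 CPM at 37°C. The log2 fold change at 37°C against 25°C was −1.63 (SE 0.52, edgeR adjusted p = 0.294), the lowest of all members. It was −0.71 without the first 25°C library, in which its CPM was 1.55 higher on the log2 scale than in the second. MAK16, EBP2 (a partner of Brx1), and RRP1 had log2 fold changes of −1.33, −1.22, and −1.07, and of −0.75, −0.74, and −0.67 without the first 25°C library. NSA1 (YGL111W), part of the module that the ATPase Rix7 removes, had 433 and 372 CPM at 37°C, against 576 and 407 CPM at 25°C, and −0.28 (SE 0.34, −0.05 without the first 25°C library), so its libraries overlapped, with 321 and 394 CPM at 30°C.

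All 9 DEAD-box helicases, which remodel RNA and RNA-protein contacts in the particle, had a negative log2 fold change (median −0.86, range −1.19 for DBP10 to −0.11 for DBP6), and 8 of 9 did not overlap (23.2% of all genes). Without the first 25°C library their median was −0.39 and 8 of 9 were negative, with −0.47 for DBP10 and 0.19 for DBP7. HAS1 (YMR290C), which works in both subunits' assembly, had 306 and 240.3 CPM at 25°C, 173 and 197 CPM at 30°C, and 155 and 128 CPM at 37°C. The change at 37°C against 25°C was −0.93 (SE 0.31, edgeR adjusted p = 0.299) and −0.80 without the first 25°C library. DBP6 (YNR038W), of the earliest particles, had 99.9 and 101 CPM at 25°C, 113 and 96.3 CPM at 30°C, and 95.9 and 90.0 CPM at 37°C, and at 37°C against 25°C a log2 fold change of −0.11 (95% interval −0.81 to 0.58). The methyltransferases NOP2 (YNL061W) and SPB1 (YCL054W), which modify the 25S rRNA, had −0.62 (SE 0.32) and −1.27 (SE 0.52), and −0.41 and −0.60 without the first 25°C library. NOP2 had 265 and 188 CPM at 25°C, 146 and 176 CPM at 30°C, and 158 and 131 CPM at 37°C. SPB1 had 2810.1 and 1243 CPM at 25°C, 885 and 1467 CPM at 30°C, and 938 and 741 CPM at 37°C, so the first 25°C library was the highest by far.

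The Noc proteins (NOC2, NOC3, and MAK21, or Noc1), which form successive heterodimers on the nucleolar and nuclear particle, ran together at −0.93, −0.76, and −1.02, and none of them overlapped (23.2% of all genes). Leaving out the first 25°C library gave −0.80, −0.44, and −0.57, and none had an unadjusted p below 0.05. NOC2 (YOR206W) had 1658 and 1327 CPM at 25°C, 923 and 1266 CPM at 30°C, and 837 and 725 CPM at 37°C. NOC3 (YLR002C) had 558 and 354 CPM at 25°C, 274 and 361 CPM at 30°C, and 287 and 248 CPM at 37°C, so its 30°C libraries overlapped both other groups. All 5 members of the Brix family and the 5S loading group had libraries that did not overlap (23.2% of all genes), with log2 fold changes of −1.01 to −0.25, and of −0.76 to −0.09 without the first 25°C library. BRX1 (YOL077C, chrXV:185848-186723) had 588 and 409.6 CPM at 25°C, 400.4 and 374 CPM at 30°C, and 237 and 256 CPM at 37°C, with −1.01 (SE 0.33, edgeR adjusted p = 0.299), and −0.76 without the first 25°C library. RPF2 (YKR081C), which brings the 5S particle in with Rrs1, had 488 and 440.3 CPM at 25°C, 435 and 430.5 CPM at 30°C, and 255 and 285 CPM at 37°C. No groups overlapped, though the 30°C libraries lay just below those at 25°C. RPF2 had −0.78 (SE 0.30) at 37°C against 25°C and −0.74 without the first 25°C library. RRS1 (YOR294W) had 188 and 208 CPM at 25°C, 186 and 144 CPM at 30°C, and 159 and 175 CPM at 37°C, with −0.25 (SE 0.30) at 37°C against 25°C.

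The 7 RNA-binding factors had a median of −0.73, all negative, and of −0.57 without the first 25°C library, all negative. LOC1 (YFR001W), which also acts in the localization of ASH1 mRNA, had 882 and 497 CPM at 25°C, 400.4 and 515 CPM at 30°C, and 336 and 319.8 CPM at 37°C, with −1.06 at 37°C against 25°C (SE 0.39, edgeR adjusted p = 0.338) and −0.63 without the first 25°C library. NOP8 (YOL144W) had 288 and 183 CPM at 25°C, 144 and 143 CPM at 30°C, and 191 and 178 CPM at 37°C, and its lowest values were at 30°C. NIP7 (YPL211W), the shortest gene of the group (546 bp), had 0 and 127 counts at 25°C, 188 and 47 counts at 30°C, and 73 and 106 counts at 37°C. A count of 0 in the first 25°C library allows up to 16.3 CPM before TMM scaling (3 counts of that library's genes, counting error only). The log2 fold change of NIP7 was −0.03 at 37°C against 25°C, with an interval of −2.34 to 2.28.

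A set of 4 members resemble or escort ribosomal proteins. RLP24 (YLR009W), which holds the place of Rpl24, had 306 and 179.9 CPM at 25°C, 179 and 164 CPM at 30°C, and 141 and 119 CPM at 37°C, with −0.87 (SE 0.35) at 37°C against 25°C and −0.50 without the first 25°C library. MRT4, which holds the place of the stalk protein P0, had −0.79 (SE 0.33), and RRB1, a chaperone of Rpl3, had −0.43 (SE 0.30). RLP7 (YNL002C), related to Rpl7, had 499.7 and 798 CPM at 25°C, 664 and 678 CPM at 30°C, and 558 and 552 CPM at 37°C, and its 37°C and 25°C libraries overlapped (log2 fold change −0.23, SE 0.36, and −0.55 without the first 25°C library). It was one of the members that the first 25°C library held below the second.

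The GTPases NOG1, NUG1, and LSG1 had −0.84, −0.75, and −0.66 at 37°C against 25°C, without overlap (23.2% of all genes), and −0.64, −0.64, and −0.56 without the first 25°C library. LSG1 (YGL099W), which releases the export adaptor Nmd3 in the cytoplasm, had 241 and 199 CPM at 25°C, 148 and 181 CPM at 30°C, and 142 and 134 CPM at 37°C. NOG2 (YNR053C), which holds the Nmd3 site until its own release in the nucleus, is the only member with 2 coding exons. It had 329 and 391 CPM at 25°C, 370 and 432 CPM at 30°C, and 373 and 348 CPM at 37°C, with a log2 fold change of −0.00 at 37°C against 25°C (95% interval −0.72 to 0.72). In the Rix1-Rea1 group, which strips early factors from the particle, MDN1 (YLR106C, chrXII:349006-363738), the dynein-like ATPase whose mRNA the study imaged, had 3222 and 1504 CPM at 25°C, 1096 and 1781 CPM at 30°C, and 1314 and 1258 CPM at 37°C. Its log2 fold change at 37°C against 25°C was −0.87 (SE 0.50, edgeR adjusted p = 0.485) and −0.26 without the first 25°C library. IPI3 (YNL182C) had 23.5 and 48.5 CPM at 25°C, 48.5 and 49.6 CPM at 30°C, and 41.6 and 45.0 CPM at 37°C, with 0.10 (SE 0.39) at 37°C against 25°C, and RIX1 had 0.00 (SE 0.33). Both were negative without the first 25°C library (−0.20 and −0.08).

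The export and cytoplasmic factors had few reads, except NMD3. NMD3 (YHR170W), the adaptor that carries the subunit to the export receptor Crm1, had 694 and 707 CPM at 25°C, 563 and 644 CPM at 30°C, and 499.8 and 398 CPM at 37°C, so its 25°C libraries differed little. Its log2 fold change at 37°C against 25°C was −0.64 (SE 0.33) and −0.69 without the first 25°C library. TIF6 (YPR016C), which keeps the 2 subunits apart until release, had 2 and 18 counts at 25°C, 38 and 11 counts at 30°C, and 11 and 10 counts at 37°C. ARX1 (YDR101C), an export factor, had 4 and 36, 58 and 14, and 30 and 26 counts in the same order.

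**Figure D4:**
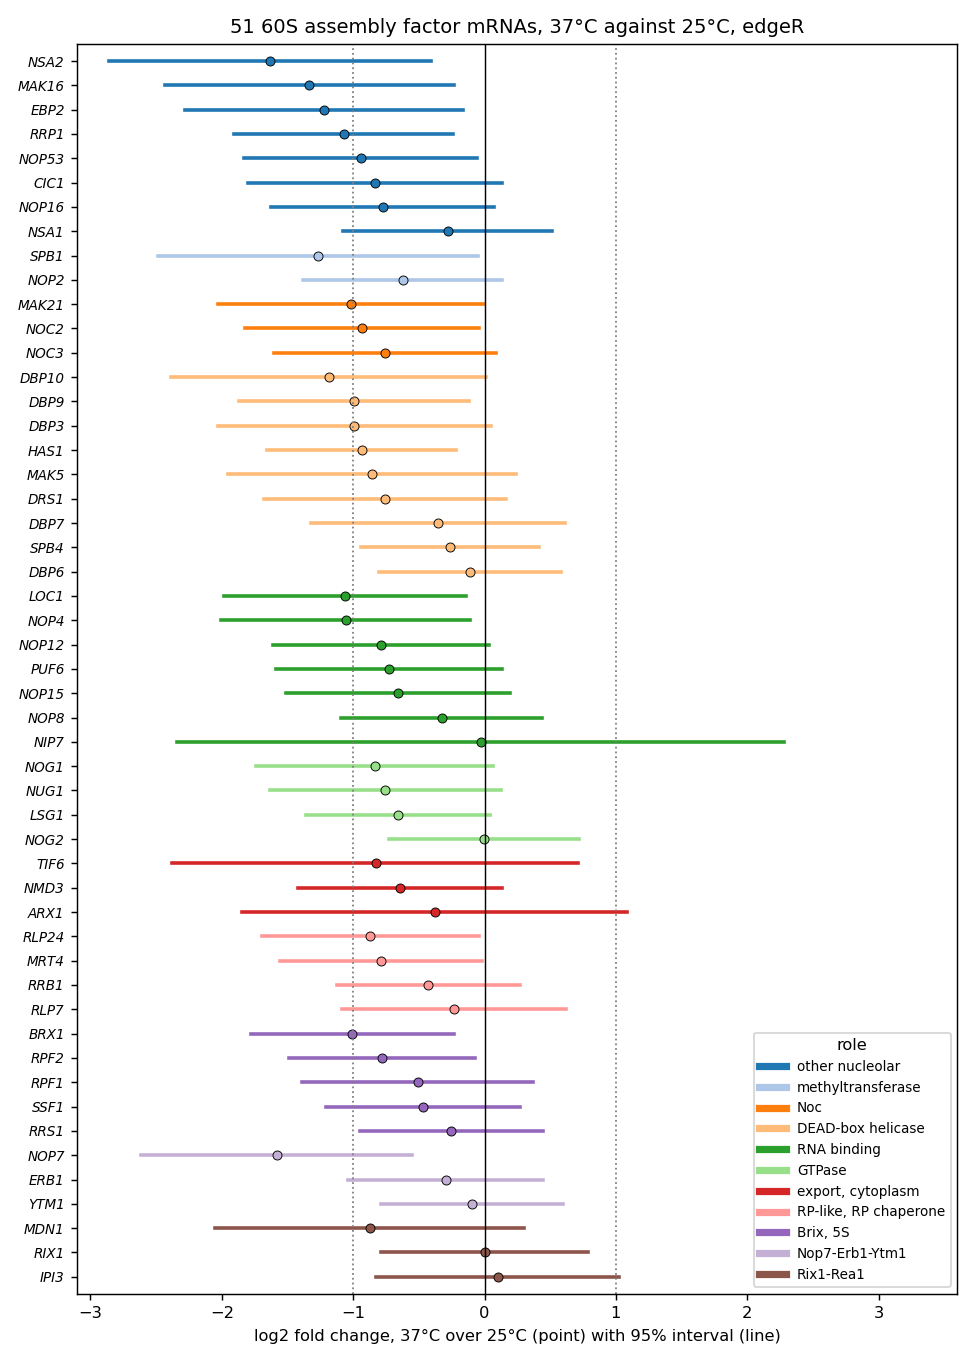
Log2 fold change at 37°C over 25°C (points) with the 95% interval (lines) of each of the 51 members, grouped by role (colours) and ordered within roles, with dotted lines at −1 and 1. Of the 51 points, 49 lie below 0 (44.6% of all genes) and 11 below −1 (305 of 5181 genes). Without the first 25°C library 2 lie below −1 (146 of 5347 genes). With all libraries 17 intervals lie wholly below 0 (312 of 5181 genes), and fewer do without that library.

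The replicate spread in these genes was uneven. The log2 ratio of replicate 1 to replicate 2 had a median over members of 0.52 at 25°C (39 of 51 positive), −0.27 at 30°C (11 positive), and 0.18 at 37°C (44 positive), against −0.12, −0.02, and −0.00 for all genes. At 25°C it ran from −5.88 for NIP7 to 1.55 for NSA2, at 30°C from −0.73 for SPB1 to 1.63 for NIP7, and at 37°C from −0.34 for NIP7 to 0.58 for MAK16. Across the 51 members, Spearman's rho between the ratios at 25°C and 30°C was −0.64, and between the ratio at 30°C and the mean level −0.68. Members share libraries and these correlations describe the 6 libraries only. The part of library depth in these ratios was not tested.

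**Figure D5:**
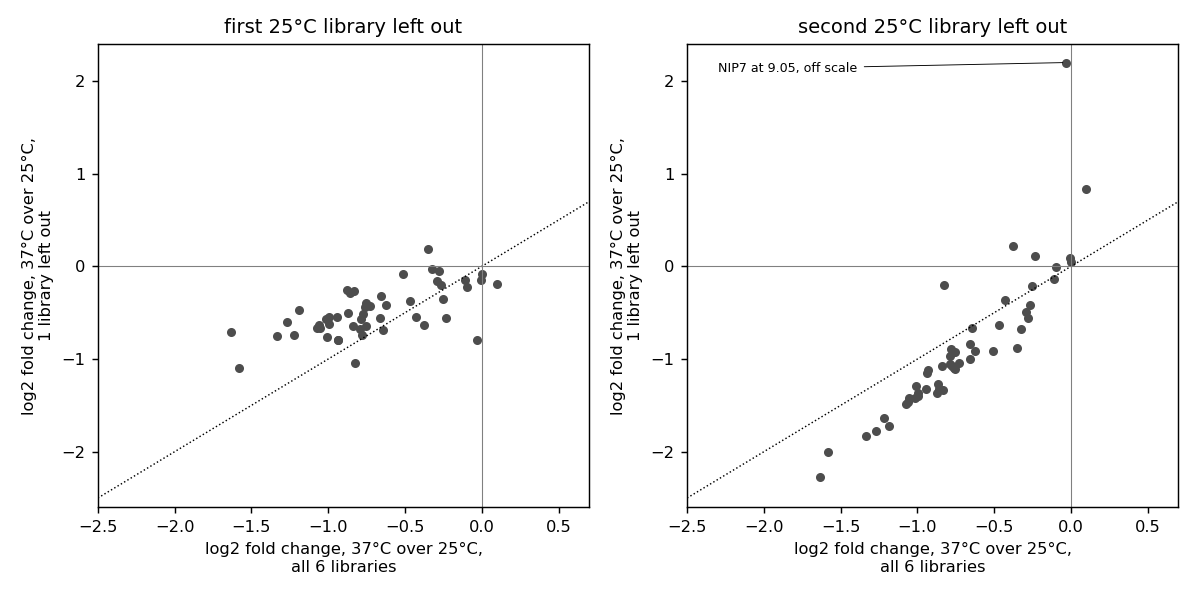
Log2 fold change at 37°C over 25°C from all 6 libraries (x axis) and with the first (left) or the second (right) 25°C library left out (y axis), 1 point per member, with equality dotted. On the left 50 of 51 points lie below 0 with a median of −0.54, and on the right the median is −1.04 and NIP7 is off the scale.

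At 37°C against 30°C the members were lower by less. The median was −0.33, against −0.01 for all genes, with 46 of 51 negative (51.3% of all genes) and a range of −1.49 to 0.36. Both 37°C libraries lay below both 30°C libraries in 28 members (20.2% of all genes) and above them in 1, NOP8 (24.3% of all genes). Only TIF6 had an unadjusted p below 0.05 and was lower (2.41% of all genes), with 11.7 and 9.38 CPM at 37°C, against 42.9 and 15.6 CPM at 30°C (log2 fold change −1.49, edgeR adjusted p = 0.662), and 0 members were higher at that threshold (4.65% of all genes). RPF2 and BRX1 came next, with −0.68 (SE 0.30) and −0.65 (SE 0.32). No member was called, by edgeR (0% of all genes) or by DESeq2 (0.0752% of 5320 genes lower). The median was −0.46 without the first 30°C library and −0.16 without the second. No 25°C value enters the levels compared here, although the filter, the scaling factors, and the estimate of spread come from all 6 libraries. With either 25°C library left out the median was −0.37.

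At 30°C against 25°C the median was −0.45, against 0.08 for all genes, with 41 of 51 negative (43.9% of all genes). The libraries did not overlap in 24 members that were lower (10.4% of all genes) and 1 that was higher, YTM1 (13.1% of all genes), with 250.4 and 252 CPM at 30°C. None had an unadjusted p below 0.05 in either direction (0.309% of all genes lower and 1.10% higher), and neither edgeR (0%) nor DESeq2 (0%) called any. NSA2 had the lowest log2 fold change (−1.08, SE 0.51), then DBP10, NOP7, and MAK16 (−0.86 each). Without the first 25°C library the median was −0.11, so the lower level at 30°C rests largely on that library. Without the second it was −0.70. The 25°C libraries serve here and in the comparison with 37°C.

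Other genes of the same process were counted from lists. Over all tested genes, 6.02% were lower and 7.53% higher at 37°C against 25°C at an unadjusted p below 0.05 in edgeR's test. Of 25 further 60S factors, such as IPI1 and RSA4, 20 were negative at 37°C against 25°C (median −0.50) and 3 were lower at an unadjusted p below 0.05 (1 without the first 25°C library, where the median was −0.28). Of 48 factors of the small-subunit processome, which build the 40S subunit, 39 were negative (median −0.41), with 4 lower and 1 higher at that threshold. Without that library the median was −0.32, with 3 lower and 0 higher. All 7 tested RNA polymerase I genes were negative (median −0.42, 3 at that threshold), and without that library the median was −0.61, with 2 at that threshold. The ribosomal proteins of the large subunit had a median of −0.17 at 37°C against 25°C (53 of 82 negative) and −0.90 against 30°C (81 of 82 negative), and of 0.66 at 30°C against 25°C. Without the first 25°C library these medians were −0.79 (80 of 82 negative), −0.94, and 0.11. At 37°C against 25°C 17 were lower and 0 higher at that threshold, and 20 and 0 without that library. The 9 regulators of ribosome synthesis, such as SFP1 and DOT6, had a median of 0.04 (0.28 without that library). Of 20 stress genes driven by Msn2 and Msn4, 19 were tested, and their median at 37°C against 25°C was 1.30, where 17 were positive and 10 higher at that threshold, with a median of 1.35 and the same counts without that library. At 37°C against 25°C edgeR called no gene of these lists, and DESeq2 called lower 1 of the 14 further 60S factors that it gave an adjusted p, 1 of 28 processome factors, and 8 of 73 ribosomal proteins, and called higher 2 of 6 stress genes. Over all 1156 genes with an adjusted p it called 38 lower and 15 higher. Without the first 25°C library, which leaves 1 library at 25°C, DESeq2 kept no lower call in these lists. In that fit it called few genes lower over all genes too, and some stress genes were still called higher.

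Promoter cores and levels were set side by side as a description. The 41 members with both cores had a median log2 fold change of −0.76 at 37°C against 25°C, the 6 with PAC alone −0.96, and the 4 with RRPE alone −0.61 (−0.55, −0.46, and −0.31 without the first 25°C library). Of the tested coding genes that are not members, 280 had both cores (median −0.23), 688 had PAC alone (median 0.14), 442 had RRPE alone (median −0.01), and 3556 had neither (median 0.13). The PAC core was found in 45 of 48 processome genes and in 8 of 82 genes of large-subunit proteins. The STRE core was found in 14 of 20 stress genes.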

How the data were processed

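The authors deposited raw counts per gene for each library, with R64 as the genome. In the submitters' processing notes, the tools are STAR 2.7.10a, UMI-tools 1.0.1, DESeq2 1.38.2, and HTSeq 2.0.2. The annotation holds coding regions, so reads that end in 3′ untranslated sequence outside them are not counted, and whether the counting used strand is not given in the labels or methods. Counts divided by size factors, also from the authors, were not used. Summary entries for reads in no feature (41.1% to 47.9%) were kept out of library sizes.

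The 5181 genes that passed filterByExpr were fitted together over the 6 libraries by edgeR 4.0.16, with a term for temperature alone and TMM factors of 0.883 to 1.12, and tested by its quasi-likelihood F test. The Benjamini-Hochberg adjustment ran over all of them. Calls used the paper's thresholds, a log2 fold change beyond 1 in either direction and an adjusted p below 0.05. Standard errors come from the unshrunk coefficient and F, and intervals are 95%. The sources call the 2 replicates of a temperature biological, and p-values measure the spread between these libraries. Tests were run on simulated counts first. The alternatives were DESeq2 1.42.0, limma-voom (limma 3.58.1), other scalings and filters, fits of 2 temperatures, a replicate block, and each library left out. Promoters were read from the R64 RefSeq genome, and 6458 of 6461 genes matched its annotation.

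The members and lists were chosen with earlier results of these data known. Members with values in every library are, in each of 11 role groups, the one with the smallest p and the one with the highest log2 fold change at 37°C against 25°C, MDN1, any called member, and the 3 with the smallest p in each other comparison. Others are named by their log2 fold change. Depth was 184456 to 1006632 counts per library. Before TMM scaling, 3 counts are therefore 16.3 CPM in the first 25°C library and 2.98 to 4.32 CPM in the other 5. R 4.3.3 ran the tests, and Python 3.11.15 the rest (pandas 2.3.3, numpy 2.4.6, matplotlib 3.10.9, scipy 1.17.1).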

Additional observations from a re-analysis of the deposited data

How the results depend on the processing

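The members' median log2 fold change was negative under every alternative run in all 3 comparisons, and the count of members called stayed at 0 except at 37°C against 25°C, where DESeq2 called 1 and leaving out a library gave 0 to 10 (10 without the second 25°C library). At 37°C against 25°C, the 17 members lower at an unadjusted p below 0.05 became 2 with library totals only, 9 with at least 10 counts in every library (47 members tested), 11 with only these 2 temperatures, and 1 with DESeq2 without the first 25°C library (chosen after seeing the data), and 0 to 35 with a library left out. The median of −0.78 became −0.52 with library totals, −0.48 with at least 10 counts, and −0.53 with DESeq2 without the first 25°C library, and ran from −1.04 to −0.54 with a library left out. At 37°C against 30°C, the 1 member at that threshold became 0 with DESeq2, library totals, or at least 10 counts and 5 with only these 2 temperatures, and 0 to 5 with a library left out, and the median of −0.33 became −0.12 with library totals and −0.21 with at least 10 counts, and −0.46 to −0.16 with a library left out. At 30°C against 25°C, leaving out a library gave 0 to 24 members at that threshold and medians of −0.70 to −0.11. The cause was not tested.

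Replicate numbers are not shown to pair the cultures: deviations of equal numbers correlated at −0.53 (25°C and 30°C), 0.28 (25°C and 37°C), and −0.40 (30°C and 37°C). With a replicate block in edgeR's test, 6 members were lower at an unadjusted p below 0.05 at 37°C against 25°C, and 0 were so at 37°C against 30°C. None was called (0 of 5181 genes), and NOG2 (0.0068) and NIP7 (0.16) changed sign at 37°C against 25°C. A crossed replicate block, chosen after seeing the data, gave 5 members at that threshold for 37°C against 30°C and 1 for 30°C against 25°C. No member was called there, while over all genes 21 of 5163 (5 lower) and 0 of 4897 were called.

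Over all 51 members, 13 changed sign at 37°C against 25°C under at least 1 alternative. Without the first 25°C library, DBP7 (0.19), RIX1 (−0.08), and IPI3 did so. With library totals only, the log2 fold change was 0.24 for NOG2, 0.14 for DBP6, 0.15 for YTM1, 0.20 for NIP7, and 0.013 for RLP7. With at least 10 counts in every library it was 0.0098 for RRS1, 0.27 for NOG2, 0.14 for DBP6, 0.030 for NSA1, 0.16 for YTM1, and 0.024 for RLP7. SPB4 and ERB1 also changed sign with that filter, and RIX1 did so under 10 alternatives. NIP7 was 0.20 with DESeq2 and 0.80 with limma-voom, and IPI3 was −0.18 with DESeq2 without the first 25°C library. With a library left out, the log2 fold change ran from −0.63 to 0.22 for ARX1, −0.15 to 0.094 for NOG2, −0.24 to 0.045 for YTM1, −0.20 to 0.84 for IPI3, −0.55 to 0.12 for RLP7, and −0.79 to 9.05 for NIP7, where the highest sets it against a lone 25°C library with 0 counts and depends on the prior count. The depth of the first 25°C library limits members with few counts most.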
